A study of Rattus norvegicus with 9 samples.

Results

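Transcript levels of 9 GABA-A receptor subunits were described across 9 arrays of the rat dorsal hippocampus. The genes were Gabra2, Gabra3, Gabra4, Gabra5, Gabrb1, Gabrb2, Gabrg1, Gabrg3 and Gabrd. They were taken by symbol from 18166 genes with a single symbol on the array, and each was represented by 1 probe set. Each array held RNA of 1 male Sprague-Dawley rat at 8 weeks of age, and there were 3 rats in each of 3 groups. Control rats were born to dams given water and received vehicle. VPA rats were born to dams given a single oral dose of valproic acid (VPA), an anti-epileptic drug and histone deacetylase inhibitor, in mid-gestation. From weaning until the day before RNA was taken, VPA rats received intranasal vehicle or intranasal oxytocin (OXT). No control rats with OXT were included, so the effect of OXT was measured only in VPA rats. Control pups (3) were taken from 2 litters and VPA pups (6) from 3 litters. Littermates are therefore present in both arms, and the p values treat pups as independent.

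The GABA-A receptor is a chloride channel of 5 subunits that opens when it binds the inhibitory transmitter GABA. Most receptors combine alpha and beta subunits with a gamma or delta subunit. The alpha subunit sets much of the kinetics and drug binding, the gamma subunit anchors receptors at synapses, and the delta subunit marks receptors outside synapses that carry tonic inhibition. In the hippocampus the alpha5 subunit is abundant in pyramidal cells and carries tonic inhibition, while alpha4 and delta are typical of dentate granule cells. Alpha4, beta2 and delta are also prominent in the thalamus, which borders the hippocampus.

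The subunit genes lie in clusters of the genome. In the RefSeq gene order Gabrg3 and Gabra5 were direct neighbours among protein-coding genes, as were Gabrb1 and Gabra4, and Gabra2 and Gabrg1. A single protein-coding gene, Cox7b2, separated Gabra4 from Gabra2, so 4 members formed 1 neighbourhood. The other 3 members, Gabrb2, Gabra3 and Gabrd, had no member next to them. RefSeq promoter windows (250 bases before to 50 after the gene start) were matched by symbol for 8 of the 9 members, and the one for Gabra2 was not matched. The windows of Gabrg3 and Gabra5 are shown because these neighbours differed from control in opposite directions (below). Capitals mark a GC box, the letters GGGCGG on either strand.

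Gabrg3 (GRCr8 chr1:117382408-117382707, strand -): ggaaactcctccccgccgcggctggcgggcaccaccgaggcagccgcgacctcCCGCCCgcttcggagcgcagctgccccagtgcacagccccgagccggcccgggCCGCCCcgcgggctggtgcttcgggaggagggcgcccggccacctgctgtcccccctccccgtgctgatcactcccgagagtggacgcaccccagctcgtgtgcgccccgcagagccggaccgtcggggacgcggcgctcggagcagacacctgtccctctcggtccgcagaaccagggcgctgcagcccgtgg
Gabra5 (GRCr8 chr1:117516557-117516856, strand -): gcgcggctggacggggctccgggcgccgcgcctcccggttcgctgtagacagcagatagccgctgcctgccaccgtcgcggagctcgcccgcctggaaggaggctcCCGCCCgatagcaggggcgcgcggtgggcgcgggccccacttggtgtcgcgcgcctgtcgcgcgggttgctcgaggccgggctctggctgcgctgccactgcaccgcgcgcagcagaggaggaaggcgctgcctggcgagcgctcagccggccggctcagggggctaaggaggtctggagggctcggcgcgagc

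Both windows were rich in G and C, at 76.7% for Gabrg3 and 76.3% for Gabra5, against a median of 51.7% over 33465 rat promoter windows. They held 37 and 42 CG dinucleotides, where the median window held 7. The GC box occurred in 2 places in the Gabrg3 window and in 1 place in the Gabra5 window, and 33.1% of all windows held it. Gabra4 and Gabrd had windows of the same kind, with 70.7% and 73.7% G and C. The window of Gabra3 was at the other end, with 39.3% G and C and 0 CG dinucleotides. Letters of the EGR motif, GCGNGGGCG on either strand, occurred in the Gabra4 window only (2 places), and 4.98% of all windows held them. The CRE, TGACGTCA, was in 0 of the 8 windows and in 1.83% of all windows.

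The windows of the beta subunit genes are shown because they resemble each other while Gabrb2 passed against control and Gabrb1 did not (below). Capitals mark every word of at least 9 bases that both windows hold on the strand of the gene. These words were looked for after the sequences had been read.

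Gabrb1 (GRCr8 chr14:36902844-36903143, strand -): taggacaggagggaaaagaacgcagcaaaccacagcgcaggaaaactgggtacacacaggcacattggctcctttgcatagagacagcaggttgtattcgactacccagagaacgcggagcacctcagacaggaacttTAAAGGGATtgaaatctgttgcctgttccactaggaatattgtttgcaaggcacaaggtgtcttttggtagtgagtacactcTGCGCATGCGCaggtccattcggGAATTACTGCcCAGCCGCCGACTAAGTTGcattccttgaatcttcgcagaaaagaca
Gabrb2 (GRCr8 chr10:27439543-27439842, strand +): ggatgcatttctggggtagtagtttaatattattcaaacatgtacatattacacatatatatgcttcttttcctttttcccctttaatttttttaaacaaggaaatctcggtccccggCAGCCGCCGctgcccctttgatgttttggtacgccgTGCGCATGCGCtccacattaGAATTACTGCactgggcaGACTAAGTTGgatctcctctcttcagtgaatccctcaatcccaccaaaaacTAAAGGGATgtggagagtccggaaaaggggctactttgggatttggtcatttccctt

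The longest shared word was TGCGCATGCGC, which starts at position -30 in Gabrb1 and -96 in Gabrb2, counted from the gene start. Without its first base it is the palindromic motif of nuclear respiratory factor 1 (NRF1). That motif was in both beta windows, in none of the other 6 member windows, and in 0.852% of all windows on either strand. GAATTACTGC and GACTAAGTTG followed it in both genes, and were found on the gene strand of 7 and 3 of the 33465 windows. TAAAGGGAT and CAGCCGCCG were also shared but did not stand in the same order in both genes. In Gabrb1 the last base of CAGCCGCCG is the first base of GACTAAGTTG.

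Arrays were compared on the log2 expression values of the authors' table for 30429 probe sets. The array median was between 5.75 and 5.82, and arrays of a group correlated with each other at 0.9827 or more. Markers of hippocampal neurons were present in every array. Slc17a7, the vesicular glutamate transporter of principal cells, was between 11.09 and 11.74, Neurod6 between 9.47 and 10.28, and Prox1, a marker of dentate granule cells, between 8.17 and 8.64. Slc17a7 and Neurod6 were not level across groups. They differed from control by -0.34 and -0.55 with vehicle and by -0.33 and -0.53 with OXT. Both were lower without overlap, as for 6.92% (vehicle) and 5.87% (OXT) of all probe sets. Prox1 did not pass. Marker lists of neighbouring regions separated some arrays from the rest. The mean log2 level of 14 thalamus markers was between 6.46 and 6.78 in control. It was 7.90, 7.50 and 6.48 in vehicle-treated VPA replicates 1, 2 and 3, and 8.10, 7.86 and 6.59 in OXT-treated VPA replicates 1, 2 and 3. The list mean of replicate 3 of each VPA group thus lay near that of control, and the other 4 VPA arrays lay above it. Single markers went both ways in replicate 3. Slc17a6, the glutamate transporter of thalamic neurons, was 7.67 and 7.71 there against 6.09 to 6.77 in control, and Calb2 was 7.22 and 7.60 against 6.12 to 6.65. Of the 14 markers, 2 (these) were above all control arrays in both replicate 3 arrays and 5 were below all control arrays in both, such as Plekhg1 (7.18 and 7.38 against 7.92 to 8.25). The mean of 7 markers of the ventral hippocampus was between 6.20 and 6.34 in control, between 6.81 and 7.10 in the vehicle-treated and between 6.93 and 7.01 in the OXT-treated VPA group, without overlap of control and VPA arrays. Of these 7 markers, 6 were higher in each VPA group than in control at an unadjusted p under 0.05. By that threshold 5.0% of all probe sets were higher with vehicle and 3.87% with OXT. The marker lists were chosen with earlier results of these data known, so this separation is a description and no independent test. The choroid plexus list (17 markers) was between 7.37 and 8.18 in control and from 5.60 to 6.21 in VPA rats given vehicle. In OXT-treated VPA replicates 1, 2 and 3 it was 8.56, 7.51 and 5.95. In RNA of bulk tissue, fewer cells of a type and less RNA per cell cannot be told apart.

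Of the 9 subunit genes, 3 were higher and 1 was lower in VPA rats given vehicle than in control rats. Gabrg3, Gabrb2 and Gabrg1 were the higher ones, by 1.61-fold, 1.31-fold and 1.21-fold, and Gabra5 was 1.24-fold lower. Gabra2, Gabra3, Gabra4, Gabrb1 and Gabrd did not pass the test. The test was the limma comparison of group means at an unadjusted p under 0.05, the threshold of the study. By that threshold 5.0% of all probe sets were higher and 3.98% were lower. At an adjusted p under 0.05, 0 of the 9 members and 0 of all probe sets passed in limma, where 8.98% of the probe sets had an unadjusted p under 0.05 in either direction. The median difference of the 9 members was -0.04 on the log2 scale, against 0.01 over all probe sets, so the middle of the family lay near that of all genes. The arrays of Gabrg3, Gabrb2 and Gabrg1 did not overlap control, as for 6.66% of all probe sets, and Gabra5 and Gabra2 were lower without overlap, as for 6.92%.

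The same 3-to-1 split held in the OXT-treated VPA group against control, with Gabra3 in the place of Gabrg1. Gabrg3, Gabra3 and Gabrb2 were higher by 1.53-fold, 1.52-fold and 1.40-fold, and Gabra5 was 1.39-fold lower. Of all probe sets, 3.87% were higher and 3.51% were lower in this comparison at an unadjusted p under 0.05, and 0 passed when adjusted. The arrays of Gabrg3, Gabra3 and Gabrb2 lay above control without overlap, as for 6.16% of all probe sets, and those of Gabra5 lay below it, as for 5.87%. The control arrays are shared, and the 2 comparisons are therefore not independent. With both VPA groups averaged, Gabrg3, Gabra3 and Gabrb2 were higher than control and Gabra5 was lower, where 4.97% and 4.34% of all probe sets were higher and lower (9.31% together). Over all 6 VPA arrays, Gabrg3 and Gabrb2 were above control without overlap, as for 2.76% of all probe sets, and Gabra5 was below it, as for 3.17%. The smallest adjusted p of a member was 0.0697, for Gabrg3 in this comparison, and 2 of all probe sets (0.00657%) passed at an adjusted p under 0.05. The F test over the 3 groups passed for Gabrg3, Gabrb2 and Gabra5 at an unadjusted p under 0.05, as it did for 7.54% of all probe sets.

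**Figure D1:**
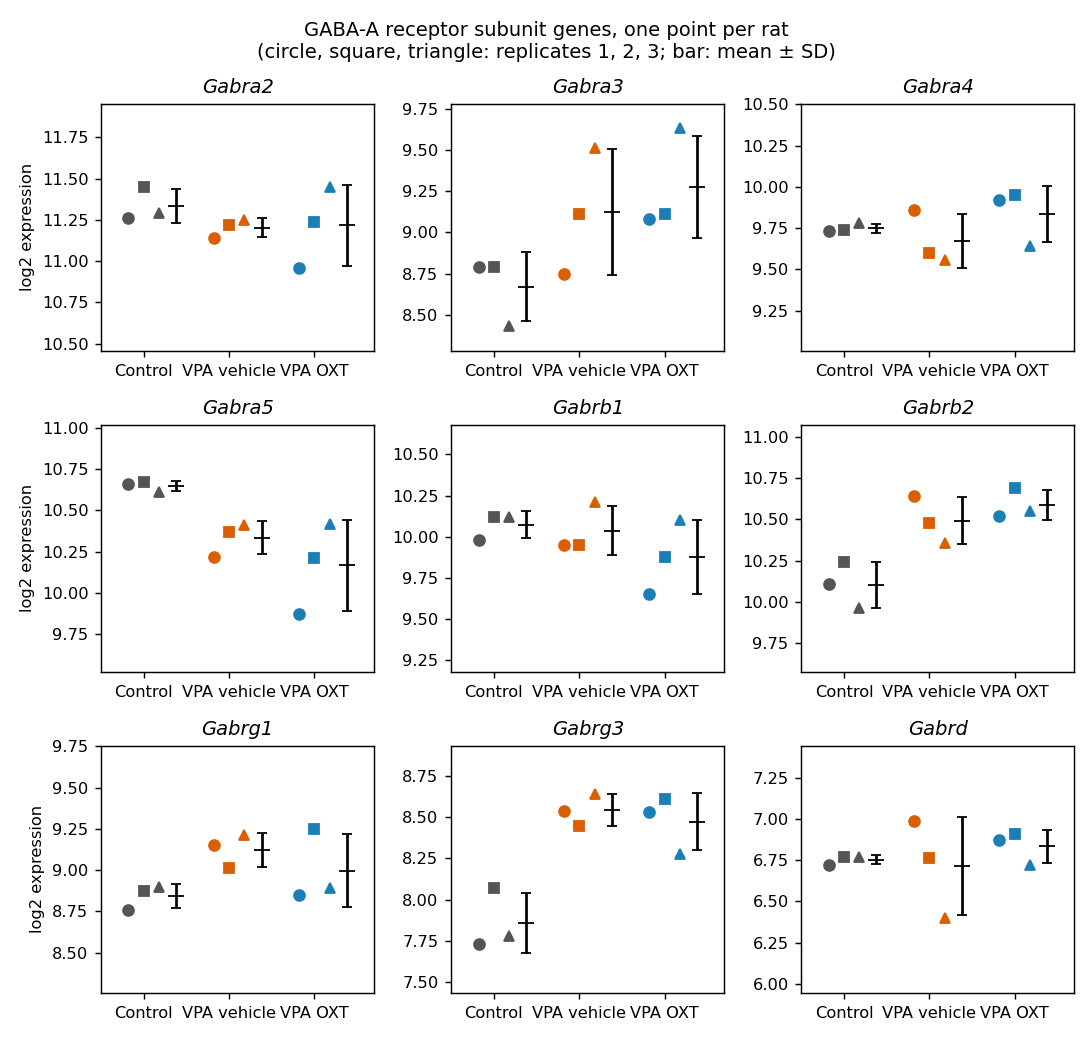
Log2 expression of each of the 9 subunit genes on each array, with 1 point per rat, marker shape for the replicate number and a bar for the mean ± SD (n = 3 rats per group). Every panel spans the same range of the log2 axis, and each gene has its own offset. Gabrg3 and Gabrb2 lie above the 3 control points in all 6 VPA rats, and Gabra5 lies below them in all 6.

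Both gamma subunit genes were higher in VPA rats given vehicle, and Gabrg3 had the largest difference of the 9 members. Gabrg3 (probe set 17633415) encodes gamma3, a less abundant relative of the gamma subunit that most synaptic receptors contain. Its log2 level was 7.73, 8.07 and 7.78 in the control arrays. It was 8.54, 8.45 and 8.64 in the vehicle-treated and 8.53, 8.61 and 8.28 in the OXT-treated VPA arrays. All 6 VPA arrays were therefore above all 3 control arrays. The difference of the vehicle-treated VPA group from control was 0.68 (SE 0.12, adjusted p = 0.134), and that of the OXT-treated VPA group was 0.61 (SE 0.12, adjusted p = 0.168). Gabrg3 was the only member that met the study's criteria for a differentially expressed gene (DEG), which 0.654% of all probe sets met. Those criteria ask for an F test past 0.05 before adjustment, a change of over 1.5-fold from control in VPA rats given vehicle, and a group mean above 6.6 on the log2 scale.

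Gabrg1 (probe set 17689679), which encodes gamma1, had log2 levels of 8.76, 8.87 and 8.90 in control. VPA rats given vehicle had 9.15, 9.01 and 9.21, all above control, with a difference of 0.28 (SE 0.12, adjusted p = 0.536). VPA rats given OXT had 8.85, 9.25 and 8.89, which overlapped control. The difference there was 0.15 (SE 0.12, adjusted p = 0.851). The vehicle-treated comparison was just inside the threshold and did not pass with median centring (0.27), with array weights (0.25) or without moderation. Nor did it pass without control replicate 1 (0.24), 2 (0.29) or 3 (0.31), or without vehicle-treated VPA replicate 1 (0.27) or 3 (0.24).

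Among the beta subunit genes, Gabrb2 was higher in VPA rats and Gabrb1 did not pass. The beta subunits form the GABA binding site with alpha, and beta2 is found in many of the brain's synaptic receptors. Gabrb2 (probe set 17645056) had log2 levels of 10.11, 10.24 and 9.96 in control. The levels were 10.64, 10.48 and 10.36 in the vehicle-treated and 10.52, 10.69 and 10.55 in the OXT-treated VPA arrays. The VPA arrays were again all above the control arrays. The difference from control was 0.39 with vehicle (SE 0.11, adjusted p = 0.324) and 0.48 with OXT (SE 0.11, adjusted p = 0.221). Both remained past an unadjusted p under 0.05 when any 1 array was left out, between 0.32 and 0.46 for the vehicle-treated and between 0.41 and 0.55 for the OXT-treated group.

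Gabrb1 (probe set 17694264), whose promoter window shares the words shown above with Gabrb2, was at 9.98, 10.12 and 10.12 in control. It was at 9.95, 9.95 and 10.21 in the vehicle-treated VPA arrays, a difference of -0.04 (SE 0.13, adjusted p = 0.948). OXT-treated VPA arrays had levels of 9.65, 9.88 and 10.10, a difference of -0.20 from control (SE 0.13, adjusted p = 0.82). Within each VPA group replicate 3 was the highest array, at the level of the controls. Without OXT-treated VPA replicate 3 the OXT group was lower than control and passed (-0.31). The 95% interval of the difference between vehicle-treated VPA and control ran from -0.33 to 0.25 for Gabrb1, and from 0.15 to 0.63 for Gabrb2. The difference between these intervals was not tested.

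**Figure D2:**
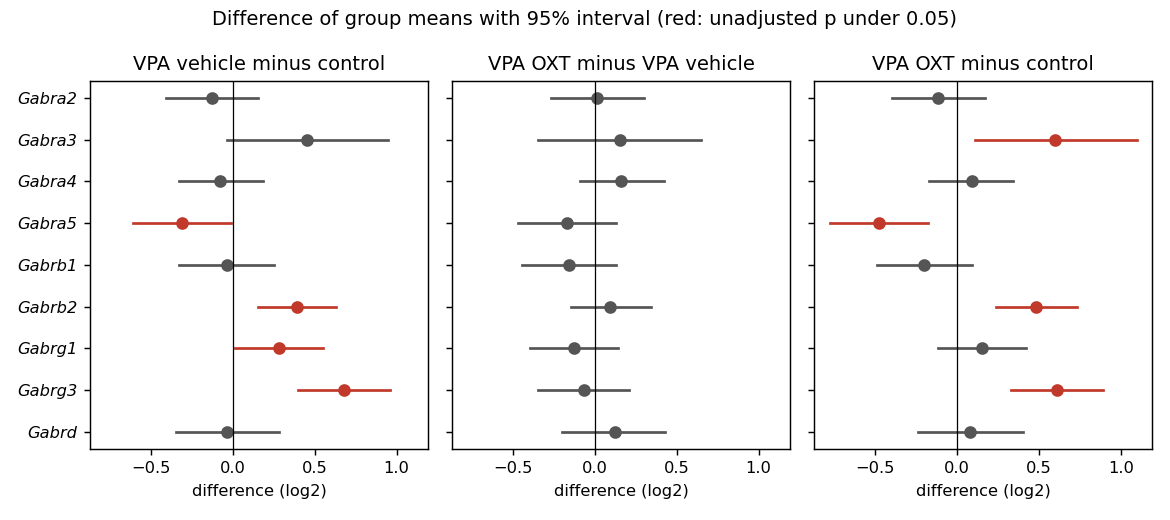
Difference of group means on the log2 scale with its 95% interval from the limma fit, for the 9 subunit genes in 3 comparisons. Red marks an unadjusted p under 0.05, which 4 genes reached in the comparison of vehicle-treated VPA with control, 4 in that of OXT-treated VPA with control, and 0 between the VPA groups.

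Gabra5 was the alpha subunit gene that was lower in VPA rats. Alpha5 receptors restrain excitability of pyramidal cells outside synapses, and their level is tied to hippocampal learning in rodents. Gabra5 (probe set 17633433) had log2 levels of 10.66, 10.67 and 10.61 in control. It had levels of 10.22, 10.37 and 10.41 in the vehicle-treated and of 9.87, 10.21 and 10.42 in the OXT-treated VPA arrays. Every VPA array was below every control array. The SD was 0.03 in control and 0.28 in the OXT-treated group (n = 3 each). The difference from control was -0.31 in the vehicle-treated group (SE 0.13, adjusted p = 0.536) and -0.48 with OXT (SE 0.13, adjusted p = 0.397). The first was just inside the threshold and did not pass without control replicate 1 (-0.31), 2 (-0.30) or 3 (-0.33). The same was true without vehicle-treated VPA replicate 1 (-0.26), 2 (-0.33) or 3 (-0.35), without OXT-treated VPA replicate 2 (-0.31), and without moderation. The second comparison passed with any 1 array left out, between -0.61 and -0.33. The mean of 12 markers of hippocampal principal cells was between 8.16 and 8.41 in control, from 7.81 to 8.19 with vehicle and from 7.97 to 8.10 with OXT. Of these 12 markers, 4 were lower than control in the first comparison and 5 in the second, where 3.98% and 3.51% of all probe sets were lower. Grik4, Neurod6, Neurod2 and Slc17a7 were lower in both. From vehicle-treated replicate 1 to 3 the list mean fell (8.19, 8.08 and 7.81) while Gabra5 rose. With OXT both were lowest in replicate 1. Over all arrays Pearson's r of Gabra5 was 0.58 with this list, and -0.84 with the thalamus list, the furthest from 0 of the marker lists. The part of these lists in the Gabra5 result was not tested.

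Gabra3 (probe set 17879722) encodes alpha3, a subunit typical of monoaminergic and some forebrain neurons. It was the member with the widest spread within groups, with log2 levels of 8.79, 8.79 and 8.43 in control. In vehicle-treated VPA rats the levels were 8.75, 9.11 and 9.51, and in OXT-treated VPA rats they were 9.08, 9.11 and 9.63. The vehicle-treated arrays overlapped control and the OXT-treated arrays did not. The differences were 0.45 (SE 0.22, adjusted p = 0.579) and 0.60 (SE 0.22, adjusted p = 0.557), and the second passed before adjustment. Replicate 3 was the highest array of each VPA group. Without vehicle-treated VPA replicate 1 the first difference was 0.64 and passed, and without vehicle-treated VPA replicate 3 it was 0.26 and did not. It also passed without OXT-treated VPA replicate 3 (0.45). The second did not pass without control replicate 3 (0.48), without OXT-treated VPA replicate 3 (0.42) or without moderation. With both VPA groups averaged, the difference of 0.53 did not pass without control replicate 3 (0.41) or without moderation. Of the 9 marker lists, the mean of 6 oligodendrocyte markers had the Pearson's r with Gabra3 furthest from 0 over the arrays (-0.92). The ventral hippocampus list (0.79) and the principal cell list (-0.64) varied with Gabra3 as well. The oligodendrocyte mean was 9.44 and 9.61 in replicate 3 of the vehicle-treated and OXT-treated VPA groups, and between 10.05 and 10.91 in the other 7 arrays. The part of these lists in the Gabra3 result was not tested.

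Gabra2, Gabra4 and Gabrd did not pass in any comparison of groups with the values as deposited. Gabra2 (probe set 17689669), the gene of the alpha2 subunit of axon initial segments and forebrain synapses, was at 11.26, 11.45 and 11.29 in control. It was at 11.14, 11.22 and 11.25 in the vehicle-treated and at 10.96, 11.24 and 11.45 in the OXT-treated VPA arrays. The vehicle-treated arrays were all below control, as were those of 6.92% of all probe sets, by a mean of only 0.13 (SE 0.12, adjusted p = 0.775). With quantile normalization the difference was -0.29 and passed, as did that of both VPA groups averaged (-0.27).

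Gabra4 (probe set 17689654) was between 9.73 and 9.78 in control, and at 9.86, 9.60 and 9.56 in the vehicle-treated and 9.92, 9.95 and 9.64 in the OXT-treated VPA arrays. Gabrd (probe set 17813224), the gene of the delta subunit that pairs with alpha4, was between 6.72 and 6.77 in control, and at 6.99, 6.76 and 6.40 in the vehicle-treated and 6.87, 6.91 and 6.72 in the OXT-treated VPA arrays. Both genes were tight in control and spread in VPA rats, with replicate 3 as the lowest array of each VPA group. Their differences between vehicle-treated VPA and control had 95% intervals of -0.33 to 0.18 for Gabra4 and -0.35 to 0.28 for Gabrd. On the same arrays the thalamus list mean was near control in replicate 3 and higher in replicates 1 and 2. Vehicle-treated replicate 2 was an exception to a shared pattern. Its thalamus list mean was 7.50, while Gabra4 was below all control arrays and Gabrd was within their range. Over all arrays Pearson's r with that list was 0.70 for Gabra4 and 0.72 for Gabrd. The part of the list in these levels was not tested.

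Between OXT-treated and vehicle-treated VPA rats, none of the 9 subunit genes passed at an unadjusted p under 0.05 in limma, where 4.66% of all probe sets did (1.86% higher and 2.81% lower with OXT). The groups overlapped for all 9 genes, while 3.00% of all probe sets were higher and 3.33% lower without overlap. The largest difference upward was 0.16 for Gabra4 (SE 0.11, 95% interval -0.09 to 0.42) and the largest downward was -0.17 for Gabra5 (SE 0.13, 95% interval -0.47 to 0.13). For Gabrg3 the difference was -0.07 (95% interval -0.35 to 0.21), for Gabrb2 it was 0.09 (-0.15 to 0.34) and for Gabrg1 it was -0.13 (-0.40 to 0.14). Each of these intervals holds no change. The difference of vehicle-treated VPA from control was 0.68 for Gabrg3, 0.39 for Gabrb2, -0.31 for Gabra5 and 0.28 for Gabrg1. A change of that size back toward control lay outside the interval for Gabrg3, Gabrb2 and Gabra5, and inside it for Gabrg1. Those differences have errors of their own and share the vehicle-treated arrays, and a return to control was not tested as such. Without OXT-treated VPA replicate 3, Gabra5 was lower with OXT (-0.29) and Gabra4 was higher (0.26), and both passed. Gabra4 was also higher without vehicle-treated VPA replicate 1 (0.26), and Gabrg1 was lower without OXT-treated VPA replicate 2 (-0.25).

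Member levels are given next beside the regional marker lists, array by array. Over all arrays Pearson's r with the thalamus list was -0.88 for Gabrb1, -0.84 for Gabra5 and -0.80 for Gabra2. It was 0.72 for Gabrd, 0.70 for Gabra4, 0.66 for Gabrb2, 0.55 for Gabrg3, 0.31 for Gabrg1 and -0.10 for Gabra3. With the ventral hippocampus list it was 0.89 for Gabrg3, 0.79 for Gabrb2 and -0.73 for Gabra5. The groups themselves account for part of each r. The part of these lists in the results was not tested. In replicate 3 of both VPA groups, where the thalamus list mean was near that of control but Slc17a6 and Calb2 were above it, Gabrg3 and Gabrb2 were above all control arrays. Their log2 levels there were 8.64 and 8.28 for Gabrg3 and 10.36 and 10.55 for Gabrb2. Gabra5 was below all control arrays there as well, at 10.41 and 10.42. Over the other 4 VPA arrays Gabra5 was lowest, at 9.87, where the thalamus list was highest, at 8.10. Gabrb1 was lowest on that same array, at 9.65, and so was Gabra2, at 10.96. When the 4 arrays with a thalamus list mean over 7 were left out, a choice made after seeing the data, each VPA group held 1 array. The mean of these 2 arrays minus the control mean was 0.60 for Gabrg3, 0.35 for Gabrb2, 0.90 for Gabra3 and -0.23 for Gabra5. These values are descriptions and no test, since only the control group has a spread, and the same 2 arrays had the highest Gabra3 levels and the lowest oligodendrocyte list. The ventral hippocampus list, chosen with earlier results of these data known, separated all 6 VPA arrays from control, as Gabrg3, Gabrb2 and Gabra5 did. The exposure therefore cannot be told apart from that list in these arrays. Within the VPA arrays its highest mean, 7.10 in vehicle-treated replicate 3, was on the array with the highest Gabrg3 level (8.64) and the lowest Gabrb2 level of a VPA rat (10.36).

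**Figure D3:**
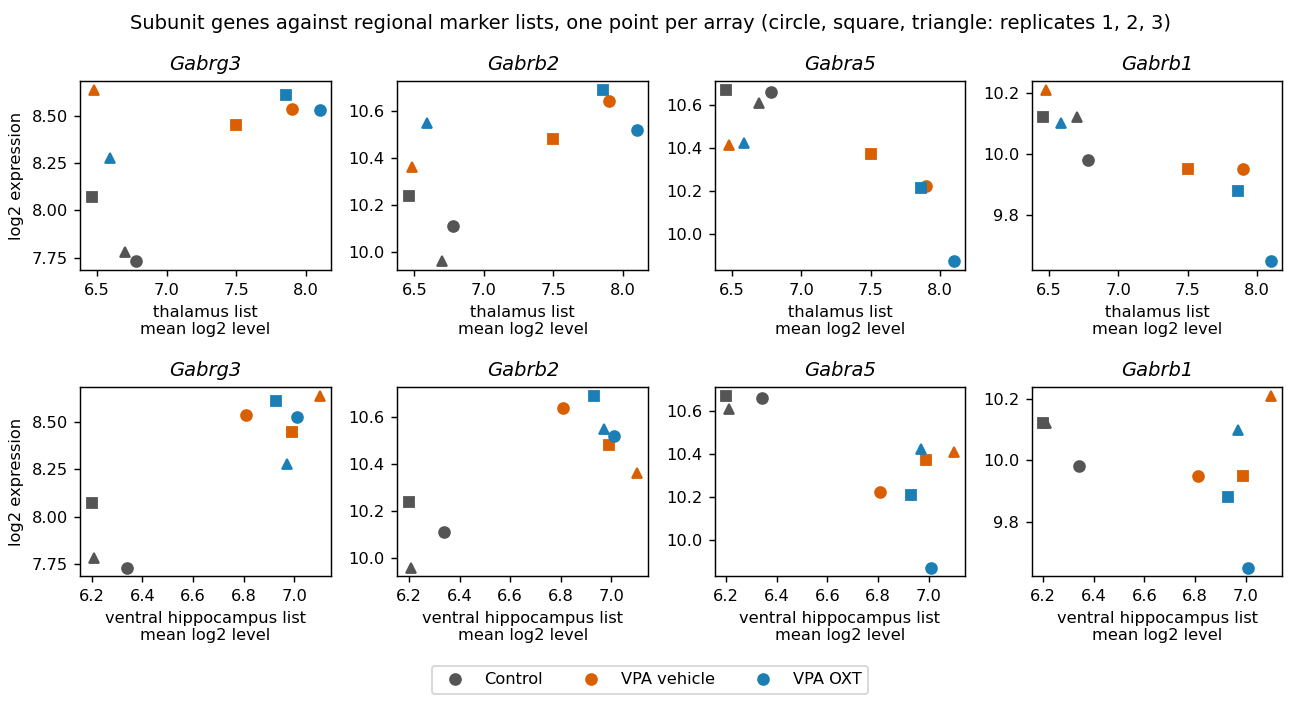
Log2 expression of Gabrg3, Gabrb2, Gabra5 and Gabrb1 against the mean log2 level of 14 thalamus markers (top) and of 7 ventral hippocampus markers (bottom), with 1 point per array, color for the group and marker shape for the replicate number. Replicate 3 of both VPA groups lies near the controls on the axis of the thalamus list mean, although 2 of its markers are higher there, and all 6 VPA arrays lie to the right of control for the ventral list.

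Genes with the most similar pattern were looked up for the 3 members that passed the F test, by Pearson's r of log2 level over the 9 arrays, among 8331 other genes with a mean over 6.6. For Gabrg3 they were Mtmr7 (r = 0.969), Usp13 (0.960), Gap43 (0.960), a protein of growing axons, and Gsdme (0.943). For Gabrb2 they were Ahcyl1 (0.958), Smim17 (0.955), Prepl (0.951) and Rab3c (0.932), a small GTPase of synaptic vesicles. For Gabra5 they were Ptpn9 (0.968), Mfap3l (0.967), St8sia5 (0.959) and Fgfr1op2 (0.953). The 3 sets share no gene. These values are descriptions, since all genes were read from the same 9 arrays and the groups themselves account for part of each r.

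Other genes of GABA signaling passed in small numbers in the comparisons with control, and 0 passed between the VPA groups, where 4.66% of all probe sets did. Of 10 other GABA-A subunit genes, 7 were measured, at mean log2 levels of the list between 4.54 and 4.85 per array. None passed in limma in either VPA group against control, where 8.98% and 7.38% of all probe sets passed. With both VPA groups averaged, 2 of the 7 were higher, Gabrr2 by 0.50 (SE 0.20, adjusted p = 0.477) and Gabrr1 by 0.28 (SE 0.12, adjusted p = 0.512), where 4.97% of all probe sets were higher. Gabrr2 and Gabrr1, genes of the rho subunits that are typical of the retina, differed by 0.50 and 0.31 between vehicle-treated VPA and control (SE 0.23 and 0.14, adjusted p = 0.564 and 0.557). Their group means were low, between 5.31 and 5.81 for Gabrr2 and between 4.98 and 5.29 for Gabrr1. Both lay under the level of 6.6 in the DEG criteria.

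Of 20 genes of receptor scaffolding and trafficking, 1 was higher and 2 were lower in vehicle-treated VPA rats than in control, where 5.0% of all probe sets were higher and 3.98% lower. Hap1 encodes a huntingtin-associated protein that returns GABA-A receptors to the membrane. Its log2 level was 7.07, 7.10 and 6.92 in control, 7.52, 7.48 and 7.44 in the vehicle-treated and 7.78, 7.50 and 7.47 in the OXT-treated VPA arrays. The groups of VPA rats lay above control without overlap, by 0.45 (SE 0.10, adjusted p = 0.215) with vehicle and 0.55 (SE 0.10, adjusted p = 0.142). Slitrk3, the gene of an adhesion protein of inhibitory synapses, differed by -0.21 (SE 0.09, adjusted p = 0.534), and Trak2, the gene of a kinesin adaptor, by -0.38 (SE 0.14, adjusted p = 0.478). Gphn, the gene of the scaffold gephyrin, was between 9.09 and 9.42 over all arrays and did not pass. The list's median difference was -0.04, against 0.01 over all probe sets.

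Genes of GABA synthesis, uptake and breakdown had a median difference of 0.23 between vehicle-treated VPA and control and of 0.40 between OXT-treated VPA and control. Of 7 measured genes, 1 was higher in the first comparison, where 5.0% of all probe sets were higher and 3.98% lower. In the second, 3 were higher, where 3.87% of all probe sets were higher and 3.51% lower. In both, 0 of the 7 were lower. Gad1, which encodes a GABA-synthesizing enzyme, was at 8.86, 9.08 and 9.07 in control, 9.48, 9.56 and 9.36 in the vehicle-treated and 9.33, 9.56 and 9.34 in the OXT-treated VPA arrays. The first difference was 0.46 (SE 0.10, adjusted p = 0.215), and the second was 0.41 (SE 0.10, adjusted p = 0.322). Slc6a11, the gene of the GABA transporter of astrocytes, was at 8.80, 8.71 and 8.74 in control, at 10.27, 10.13 and 8.87 in the vehicle-treated and at 10.38, 10.41 and 8.95 in the OXT-treated VPA arrays. It was high on the 4 arrays with the high thalamus list and near control on the other 2 VPA arrays, unlike Gad1. Abat, the gene of the enzyme that breaks GABA down, was higher by 0.40 in the OXT-treated group (SE 0.14, adjusted p = 0.551). The mean of 12 interneuron markers was between 8.13 and 8.21 in control and between 8.00 and 8.32 in the VPA arrays, and Gad1 is one of those 12. Against control, 2 of the 12 were higher with vehicle, and 2 were higher and 2 lower with OXT. Sst differed by -0.47 between OXT-treated VPA and control (SE 0.12, adjusted p = 0.322). Between the VPA groups it differed by -0.36 (SE 0.12), where 2.81% of all probe sets were lower, and both differences passed before adjustment.

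Among 5 genes of GABA-B receptors and their KCTD auxiliary subunits, 1 passed in each VPA group against control. Of all probe sets, 8.98% passed with vehicle and 7.38% with OXT. Kctd12 was lower than control in vehicle-treated VPA rats by 0.29 (SE 0.12, adjusted p = 0.518). Kctd8 was higher than control in OXT-treated VPA rats by 0.73 (SE 0.22, adjusted p = 0.455). With vehicle, Kctd8 was higher than control by 0.41 (SE 0.22) without overlap, as for 6.66% of all probe sets, but did not pass. The receptor gene Gabbr1 was between 10.73 and 11.22 over all arrays and did not pass. Chloride transport sets the direction of the GABA current, and 9 of its genes were measured. In vehicle-treated VPA rats the kinase gene Wnk3 was higher than control by 0.21 (SE 0.09, adjusted p = 0.542). Wnk1 was lower by 0.24 (SE 0.11, adjusted p = 0.556). In that comparison 5.0% of all probe sets were higher and 3.98% lower. None of the 9 passed between OXT-treated VPA and control. Neither list had a gene that passed between the VPA groups. The chloride exporter gene of mature neurons, Slc12a5, was between 8.71 and 9.20, and the importer gene Slc12a2 between 9.13 and 10.10, and neither passed.

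**Figure D4:**
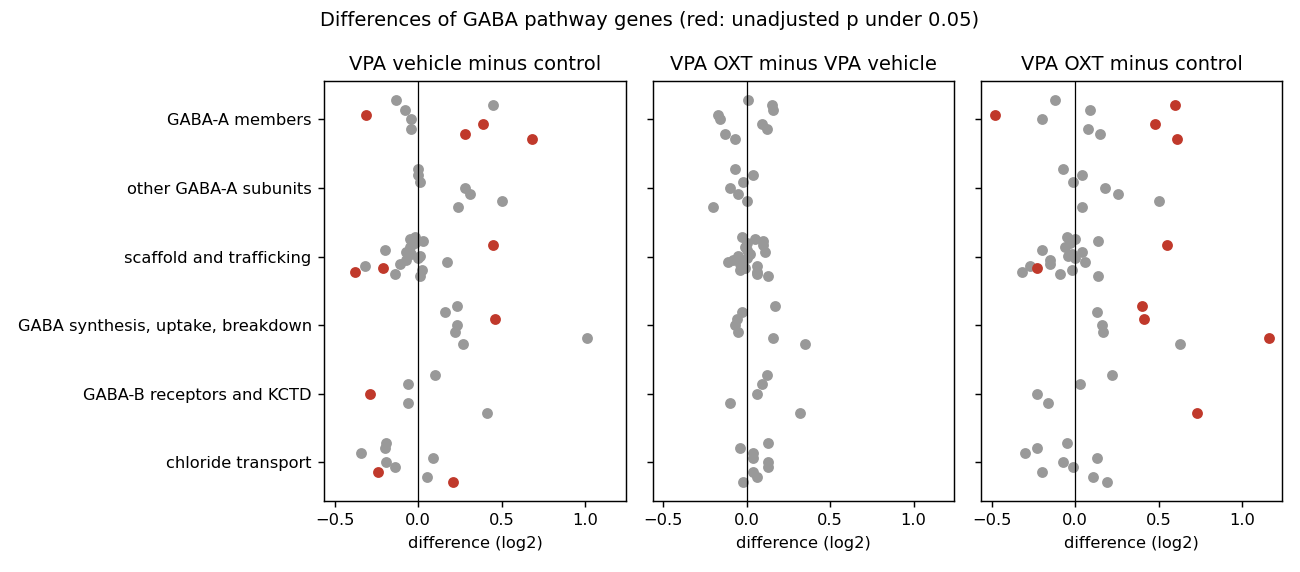
Difference of group means on the log2 scale for the 9 subunit genes and for 5 lists of other GABA genes in 3 comparisons, with 1 point per gene. Red marks an unadjusted p under 0.05 in limma, and no gene of these lists is red between the VPA groups.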

How the data were processed

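Dorsal hippocampal RNA was hybridised to Rat Gene 2.0 ST arrays, 1 per rat. The log2 values deposited by the authors came from Transcriptome Analysis Console (methods) and Affymetrix Expression Console (submitters' processing notes), were normalized by the authors, and are given to 2 decimals. The summarization method and genome build are not given in the sources used here. Values were used as deposited, without a filter on level. Probe sets were named through the platform annotation, and 18511 of 30429 carry 1 symbol. A gene passed at an unadjusted p under 0.05, the threshold of the study's methods. The number of arrays limits the precision.

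Groups came from the sample titles. Group means were fitted for every probe set in limma 3.58.1 under R 4.3.3, with variances moderated by empirical Bayes (2.723 prior degrees of freedom). Benjamini-Hochberg adjustment ran over the whole table, and the fit was tested on simulated data. Over all probe sets, samples with the same replicate number did not deviate together from their group means, with correlations between -0.21 and 0.10. The numbers were therefore not used for pairing. Some lists did share a pattern, since replicate 3 had the lowest thalamus and oligodendrocyte list mean of each VPA group. Named genes were all members, up to 4 genes per pathway list and up to 3 per marker list by the smallest p of the F, and the 4 most similar genes per member that passed the F. Genes named outside this rule (Gphn, Slc12a5, and the markers Slc17a7, Prox1, Plekhg1) were chosen after their values were seen. Not all genes that the rule takes are printed. Members and lists were chosen with earlier results of these data known. Promoter windows and gene order are from RefSeq (GRCr8). Alternatives were quantile normalization, median centring, trend and robust moderation, no moderation, array weights, only the groups compared, a level filter, 1 probe set per gene, the replicate block, and leaving out each array.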

Additional observations from a re-analysis of the deposited data

How the results depend on the processing

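Gabrg3 and Gabrb2 kept their direction and an unadjusted p under 0.05 against control in limma, in each VPA group, under every alternative (leaving out any 1 array included) except the one added after seeing the data. The counts of members that passed kept within 1.5 times under most alternatives. The exceptions were 2 instead of 4 without moderation for vehicle-treated VPA against control, and 0 instead of 1 for the DEG criteria with the adjusted p of the F. With 1 array left out, the counts were between 2 and 5 for vehicle-treated VPA against control, 3 and 4 for OXT-treated VPA against control, 0 and 2 between the VPA groups, 3 and 5 for both VPA groups against control, 2 and 4 for the F, and 1 and 2 for the DEG criteria. With the replicate block the first of these counts was 3 (Gabrg1 did not pass) and the others did not change. No member had several probe sets, so their mean was not run.

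Members near 0 changed sign. For vehicle-treated VPA against control, Gabrb1 was 0.01 with quantile normalization and Gabrd 0.04 with array weights. Between the VPA groups, Gabra2 was 0.00 with median centring and -0.02 with array weights, and Gabrg3 was 0.03 with array weights. For both VPA groups against control, Gabra4 was -0.01 with median centring. With 1 array left out, the first comparison gave -0.12 to 0.01 for Gabrb1 and -0.17 to 0.12 for Gabrd. The comparison of the VPA groups gave -0.10 to 0.14 for Gabra2, -0.04 to 0.34 for Gabra3, -0.14 to 0.03 for Gabrg3 and -0.04 to 0.25 for Gabrd. OXT-treated VPA against control gave -0.23 to 0.01 for Gabra2. Both VPA groups against control gave -0.04 to 0.05 for Gabra4 and -0.05 to 0.10 for Gabrd.

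Without the 4 arrays with a high thalamus list (chosen after seeing the data), 1 array was left in each VPA group, so the fit takes its spread from the 3 control arrays alone and its counts are no test of group differences. Those counts were 5 for the F, 2 for the DEG criteria and 1 between the VPA groups. Signs changed for Gabrb1 (0.14, 0.03 and 0.08 in the vehicle-treated, OXT-treated and averaged comparisons with control), Gabra2 (0.12 OXT-treated, 0.02 averaged), Gabra4 (-0.11 and -0.15), Gabrd (-0.03 and -0.19), and Gabra5 between the VPA groups (0.01). The cause was not tested.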
